A study of Lachancea kluyveri with 16 samples.

Results

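The maltose transporter and isomaltase genes of the budding yeast Lachancea kluyveri are SAKL0A05676g, the ortholog of MAL11, the IMA1 orthologs SAKL0A05654g, SAKL0A05698g and SAKL0C02112g, and the IMA5 orthologs SAKL0A00154g and SAKL0C00176g. They were picked by gene identifier and make up 6 of the 5316 genes and 12 of the 10620 gene probes on the array. The set was chosen on expression values of these same arrays, namely the lower signal of these genes in sef1Δ than in wild-type (WT) cells in YPGly. Values of that comparison are therefore a description, and they carry no test. In baker's yeast, from which the gene names come, Mal11 is a plasma membrane symporter that brings maltose and related sugars into the cell together with a proton. Ima1 and Ima5 are isomaltases, cytoplasmic enzymes that split isomaltose and similar sugars into glucose. Genes for the use of maltose are known there for being held down by glucose and, for many of them, for needing a sugar inducer as well.

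RNA was measured in 4 groups of 4 arrays, which were sef1Δ cells in YPGly, WT cells in YPGly, sef1Δ cells in YPD and WT cells in YPD. YPD is rich medium with glucose, and YPGly is rich medium with glycerol, a carbon source that yeast uses by respiration. The WT strain is JYL1897 (MATa ura3), and sef1Δ is a single strain made from it in which KanMX6 replaced SEF1, the gene of a zinc cluster transcription factor, so both carry ura3 and every sef1Δ array comes from 1 deletion strain. All cultures were grown overnight in YPD, diluted into YPD or YPGly and harvested 5.5 h later. The YPGly samples therefore follow a move away from glucose, and adaptation and steady growth on glycerol cannot be told apart. The labels call the 4 arrays of a group biological repeats.

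Values are log2 of the processed signal relative to the 75th percentile of the gene probes on the same array, so a difference of 1 is a 2-fold change. The brighter probe stood for its gene. For SAKL0A05654g, SAKL0C02112g and SAKL0C00176g it is a probe whose name lists another member as sharing sequence. Tests covered the 4255 genes whose probe had a processed signal of 200 or more throughout at least 1 group. All 6 members passed, but MAL11 did so through its WT arrays in YPGly alone. A change passed the test when it was 1.5-fold or more and its limma p-value, adjusted by Benjamini-Hochberg, did not exceed 0.05. Levels are compared between conditions for 1 probe and never between probes.

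The 75th percentile of the signal lay between 718 and 2410, and 90.5% to 98.7% of probes were well above background. SEF1 (SAKL0F12342g) lay between -2.57 and -1.41 on the WT arrays and between -9.56 and -8.09 on 7 of the 8 sef1Δ arrays. The exception was sef1Δ replicate 3 in YPGly, at -5.90, where the other SEF1 probe read -9.59. Replicates 1 and 2 of every group were on slide 1 and replicates 3 and 4 on slide 2, and each group held the same column on both slides, so group and position on the slide cannot be told apart. Over all genes tested, sef1Δ replicate 2 in YPGly stood farthest from its group. There 178 genes were over 1 log2 unit above and 296 over 1 log2 unit below the other 3 arrays, and no member was among them.

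MAL11 had the widest range of levels. Its values in YPGly were -2.47, -4.47, -5.02 and -0.92 in sef1Δ replicates 1 to 4, against 2.38, 1.76, 3.15 and 3.47 in WT replicates 1 to 4. In YPD they were -5.99, -6.87, -6.37 and -5.41 in sef1Δ, against -6.74, -5.72, -6.26 and -6.20 in WT. The WT arrays in YPGly were thus clear of all others, the sef1Δ arrays in YPGly came next and spread over 4.10 log2 units, and both strains overlapped in YPD. In processed signal the WT arrays read 4261 to 18859 in YPGly and 7.65 to 36.6 in YPD. The probe was well above background on 3 of 4 sef1Δ arrays and on 1 of 4 WT arrays in YPD, so its level there is close to the limit of the measurement.

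The IMA1 ortholog SAKL0A05654g, which lies next to MAL11 in gene number, followed with a narrower spread. Its values in YPGly were 0.03, -0.13, -0.66 and 0.43 in sef1Δ against 3.89, 3.47, 4.08 and 3.85 in WT. In YPD they were -1.94, -2.05, -1.97 and -1.28 in sef1Δ against -1.97, -2.14, -1.91 and -1.87 in WT. Each sef1Δ array in YPGly lay between the WT arrays in YPGly and every YPD array.

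SAKL0A05698g, the IMA1 ortholog on the other side of MAL11, had the least difference between strains. It read -0.97, -0.49, -1.64 and -1.17 in sef1Δ and 0.28, -0.21, -0.24 and 0.34 in WT in YPGly. In YPD it read -3.39, -3.10, -3.57 and -2.05 in sef1Δ and -3.13, -3.08, -3.00 and -3.63 in WT. The order of the groups was the same as for its neighbours, but the highest sef1Δ array in YPGly was close to the lowest WT array.

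SAKL0C02112g, the IMA1 ortholog on chromosome C, read -0.39, 0.03, -1.15 and 0.12 in sef1Δ in YPGly against 1.80, 1.23, 2.36 and 2.55 in WT. In YPD it read -3.21, -3.33, -3.66 and -0.67 in sef1Δ against -2.59, -2.70, -3.00 and -2.66 in WT. Replicates 1 to 3 of sef1Δ in YPD were below all WT arrays there, and replicate 4 was above them and above the lowest sef1Δ array in YPGly.

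The IMA5 ortholog SAKL0A00154g behaved alike. It read 1.16, 0.95, -0.33 and 1.18 in sef1Δ against 3.14, 2.47, 3.58 and 3.72 in WT in YPGly. In YPD it read -2.18, -2.65, -3.14 and 0.09 in sef1Δ against -1.95, -2.21, -2.54 and -2.04 in WT. The other IMA5 ortholog, SAKL0C00176g, read -0.48, -0.70, -1.79 and -0.55 in sef1Δ against 2.02, 1.57, 2.29 and 2.57 in WT in YPGly. In YPD it read -2.82, -3.03, -3.48 and -1.03 in sef1Δ against -2.29, -2.52, -2.94 and -2.51 in WT. For both genes sef1Δ replicate 4 in YPD was above the lowest sef1Δ array in YPGly, so the sef1Δ groups of the 2 media overlapped by that array.

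**Figure D1:**
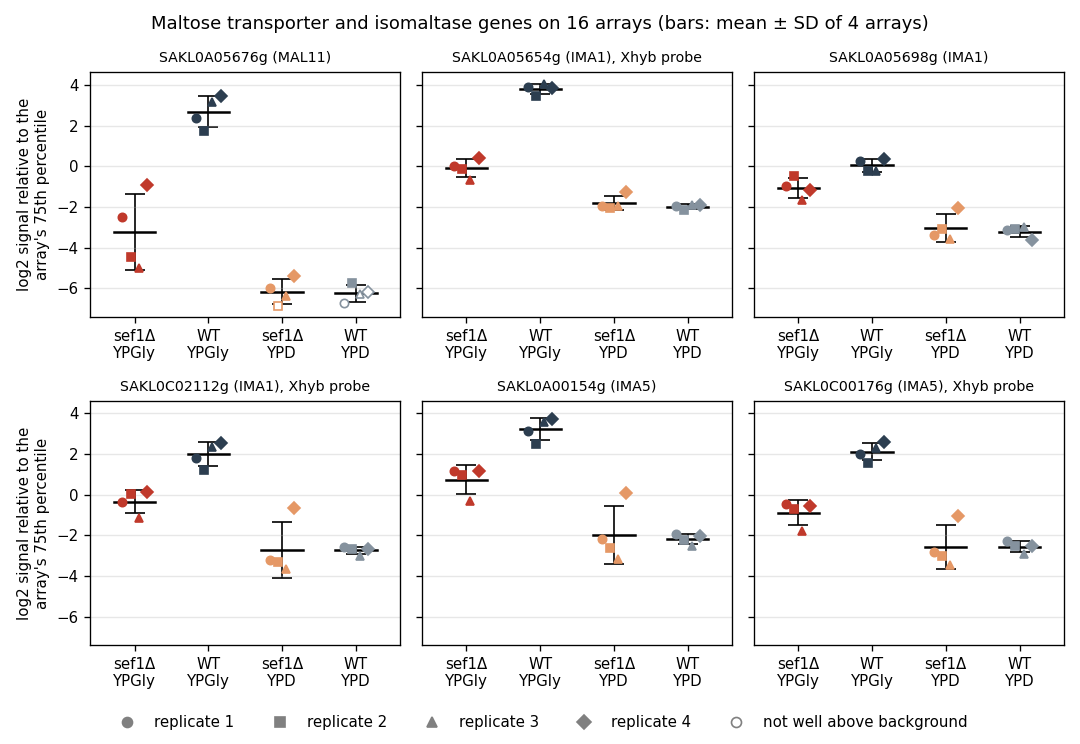
Log2 signal relative to the array's 75th percentile (vertical axis) of the probe that stands for each of the 6 members, in sef1Δ and WT cells in YPGly and YPD. Each point is 1 array with its replicate number as the shape, open points are not well above background, and bars are the mean ± SD of 4 arrays. The WT arrays in YPGly are highest in every panel, and the diamond of sef1Δ replicate 4 in YPD lies apart in most, at -0.67 for SAKL0C02112g.

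In YPGly, which is the comparison that chose the genes, all 6 were lower in sef1Δ than in WT, with no overlap between the groups. MAL11 averaged -3.22 ± 1.88 in sef1Δ against 2.69 ± 0.77 in WT (SD, n = 4 each), a 60.2-fold difference. On probes that list no other gene, the isomaltase genes SAKL0A00154g and SAKL0A05698g were 5.61-fold and 2.16-fold lower in sef1Δ. The other isomaltase genes were read only by probes that list another member, so these are not separate measurements of each gene. There the differences were 14.99-fold (SAKL0A05654g), 7.97-fold (SAKL0C00176g) and 5.04-fold (SAKL0C02112g). The other probe of SAKL0C02112g gave 19.6-fold. Of the 6 genes 5 were called lower, where 21 of 4255 genes, or 0.494%, were called in that direction, and SAKL0A05698g was not. Groups did not overlap, with sef1Δ lower, for 3.5% of all genes tested. Since the set was chosen on this comparison, nothing is read from these counts.

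The difference was not the same on the 2 slides. For MAL11, sef1Δ averaged -3.47 and WT 2.07 in YPGly on slide 1, a difference of -5.54, and on slide 2 sef1Δ averaged -2.97 and WT 3.31, a difference of -6.28. For SAKL0C02112g, sef1Δ averaged -0.18 and WT 1.52 on slide 1, and on slide 2 sef1Δ averaged -0.52 and WT 2.46. Every member was further below WT on slide 2. The WT mean was higher on slide 2 for all 6 genes, and the sef1Δ mean was lower there for all but MAL11. With the replicate number as a block, 223 genes were called in either direction in place of 52, and all 6 members were among the 89 called lower. Nothing is read from these counts either.

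In YPD the strains were compared on arrays that the choice of genes did not use. None of the 6 genes passed the test, where 3 of 4255 genes (0.0705%) did, and 113 genes had an unadjusted p under 0.05. The differences, sef1Δ minus WT, ran from -0.02 for SAKL0C00176g to 0.22 for SAKL0A00154g, with standard errors of 0.18 to 0.58, and each had a limma adjusted p of 0.999. MAL11 averaged -6.16 ± 0.61 in sef1Δ and -6.23 ± 0.42 in WT, a difference of 0.07 ± 0.31 (SE). Its processed signals in YPD were 8.26 to 54.9 in sef1Δ and 7.65 to 36.6 in WT, close to the limit of the measurement. MAL11 met the signal minimum through its WT arrays in YPGly alone. A lower level in sef1Δ could thus hardly be seen in YPD, and nothing is concluded about MAL11 from this test. The other IMA1 and IMA5 genes averaged within 0.22 log2 units of WT, but their sef1Δ arrays spread up to 1.43 (SD, SAKL0A00154g), against 0.26 in WT. With the replicate number as a block the limma adjusted p ran from 0.742 (SAKL0A05654g) to 0.991 (SAKL0C02112g), and none passed. A p that misses the threshold in YPD does not show equal levels.

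Much of that spread came from sef1Δ replicate 4. It was the highest of the 4 sef1Δ arrays in YPD for all 6 genes, and over 1 log2 unit above the next array for 4 of them. Over all genes tested 61, or 1.43%, were that far above the other 3 arrays and 53, or 1.25%, that far below. Without this array the difference between strains was -0.66 for SAKL0C02112g, -0.54 for SAKL0C00176g, -0.47 for SAKL0A00154g, -0.18 for MAL11, -0.14 for SAKL0A05698g and -0.02 for SAKL0A05654g, and again none passed. On slide 1 alone, which does not hold it, the differences for these genes were -0.62, -0.52, -0.33, -0.20, -0.14 and 0.06 in the same order. What set this array apart was not tested.

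In sef1Δ, all 6 genes averaged higher in YPGly than in YPD. The YPGly arrays of this comparison also took part in the choice of the genes, and what that choice did to the change was not tested, so the changes are given without a test. MAL11 averaged -3.22 ± 1.88 in YPGly against -6.16 ± 0.61 in YPD (SD, n = 4 each), a change of 2.94 ± 0.78 (SE) or 7.66-fold. The IMA5 ortholog SAKL0A00154g was 6.55-fold higher in YPGly (2.71 ± 0.63), and the IMA1 ortholog SAKL0C02112g 5.17-fold (2.37 ± 0.59). SAKL0A05698g was 3.89-fold higher (1.96 ± 0.35), SAKL0A05654g 3.31-fold (1.73 ± 0.26) and SAKL0C00176g 3.27-fold (1.71 ± 0.50).

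For MAL11, SAKL0A05654g and SAKL0A05698g every sef1Δ array in YPGly was above every sef1Δ array in YPD. Over all genes tested this held for 18.4%, and 18.1% were called higher in YPGly, figures from which nothing is read about the members. The other 3 genes overlapped through replicate 4 in YPD. Without that array the changes were 3.40 for SAKL0A00154g, 3.05 for SAKL0C02112g and 2.23 for SAKL0C00176g. The changes of the 6 genes were 1.95 to 3.47 on slide 1 and 1.08 to 2.92 on slide 2, which holds replicate 4 in YPD. With normexp background correction the MAL11 change was 1.57.

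In WT the same change of medium went with larger differences, which are given without a test because the WT arrays in YPGly were the high side of the choice. The changes were 8.92 for MAL11, 5.80 for SAKL0A05654g, 5.41 for SAKL0A00154g, 4.72 for SAKL0C02112g, 4.68 for SAKL0C00176g and 3.26 for SAKL0A05698g. As ratios of YPGly to YPD they ran from 9.55-fold for SAKL0A05698g to 484-fold for MAL11. The MAL11 ratio leans on YPD signals of which only 1 of 4 was well above background, and with normexp background correction its change was 6.51.

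**Figure D2:**
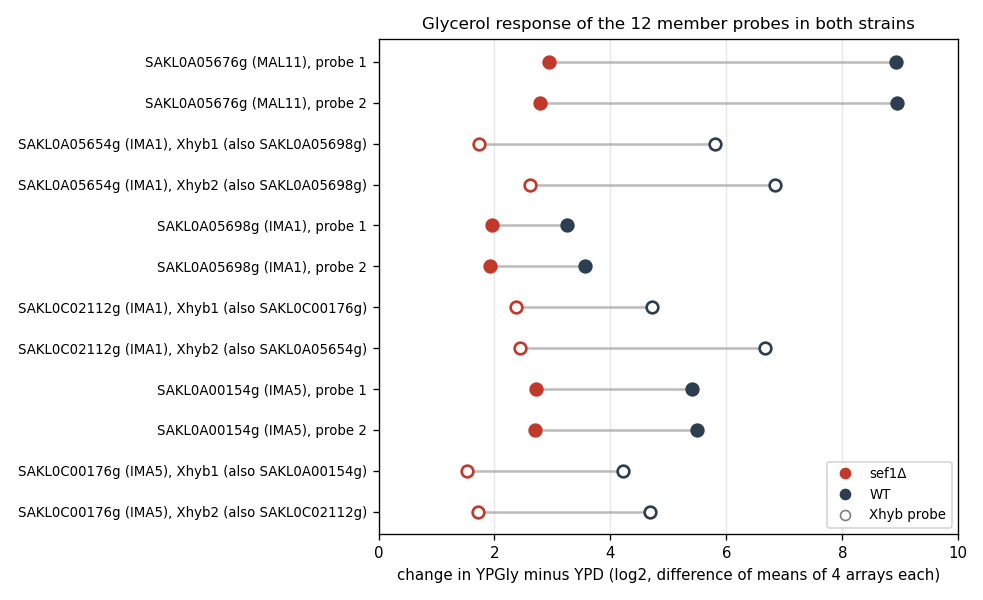
Change in YPGly minus YPD (horizontal axis, log2, difference of the means of 4 arrays each) for each of the 12 member probes, in sef1Δ and WT. Open circles are probes whose names list another gene that shares sequence. The changes lie between 1.52 and 2.94 in sef1Δ and between 3.26 and 8.95 in WT.

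Set beside each other, the response to glycerol was smaller in sef1Δ than in WT for every probe, and unequally so. The difference between the responses, sef1Δ minus WT, was -5.98 for MAL11, -4.07 for SAKL0A05654g, -2.97 for SAKL0C00176g, -2.70 for SAKL0A00154g, -2.35 for SAKL0C02112g and -1.29 for SAKL0A05698g. It holds the comparison that chose the genes and is not tested. The members of the chromosome A group therefore held both the largest and the smallest of these differences.

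Some of the isomaltase values come from probes that can bind more than 1 of them. Of the 62 probes on the array whose name contains Xhyb, a mark for shared sequence followed by the other gene, 6 belong to this family, and every gene they name is a member. Both probes of SAKL0A05654g list SAKL0A05698g. The probes of SAKL0C02112g list SAKL0C00176g or SAKL0A05654g, and those of SAKL0C00176g list SAKL0A00154g or SAKL0C02112g. These genes have no probe without the mark, so their own share of the signal cannot be told apart from that of the gene listed.

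The pair of SAKL0C02112g probes did not agree. The probe that lists SAKL0C00176g, which stood for the gene, averaged -0.35 in sef1Δ and 1.99 in WT in YPGly, a difference of -2.33. The probe that lists SAKL0A05654g averaged -2.72 in sef1Δ and 1.57 in WT, a difference of -4.29. The same differences were -2.99 for SAKL0C00176g and -3.91 for SAKL0A05654g themselves. The 2 probes of SAKL0C00176g gave -2.99 and -2.57, and those of SAKL0A05654g gave -3.91 and -4.22.

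The other 3 genes have probes without the mark. SAKL0A00154g and SAKL0A05698g are themselves listed on marked probes of other members. Whether their own probes also bind other members was not checked, since probe sequences were not used. MAL11 gave -5.91 and -5.94 on its 2 probes, SAKL0A00154g -2.49 and -2.54, and SAKL0A05698g -1.11 and -1.39 for sef1Δ minus WT in YPGly. In sef1Δ their responses to glycerol were 2.94 and 2.78 for MAL11, 2.71 and 2.71 for SAKL0A00154g, and 1.96 and 1.92 for SAKL0A05698g.

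SAKL0A05654g, MAL11 and SAKL0A05698g follow each other without another arrayed gene between them, as a transporter gene between 2 isomaltase genes. The arrayed genes next to this run are SAKL0A05632g, which did not reach the signal minimum, and SAKL0A05720g, annotated as similar to ARO4, an enzyme of aromatic amino acid synthesis. SAKL0A05720g averaged 2.97 ± 1.22 in sef1Δ and 3.70 ± 0.50 in WT in YPGly, with overlapping groups and a difference of -0.73 ± 0.53 (SE, limma adjusted p = 0.631). Of the 8 arrayed genes beside the members 6 were tested, and without a block 0 passed for sef1Δ against WT in either medium.

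SAKL0A00154g had the neighbours with the clearest values. SAKL0A00132g, similar to the mitochondrial carrier gene YMC2, averaged -3.24 ± 0.33 in sef1Δ and -2.41 ± 0.25 in WT in YPGly, and SAKL0A00176g, similar to YKL070W, averaged -1.15 ± 0.50 in sef1Δ and -0.39 ± 0.24 in WT. Every sef1Δ array was below every WT array for both genes, but the differences of -0.83 (limma adjusted p = 0.0958) and -0.76 (adjusted p = 0.21) did not pass. With the replicate number as a block SAKL0A00132g passed (limma adjusted p = 0.0175) and SAKL0A00176g did not (adjusted p = 0.0619). SAKL0A00176g also rose 4.88-fold in YPGly in sef1Δ (2.29 ± 0.29, adjusted p = 0.000197), while SAKL0A00132g fell 2.53-fold (-1.34 ± 0.29, adjusted p = 0.00414). In WT the changes were 3.27 for SAKL0A00176g and -0.66 for SAKL0A00132g. The rise of SAKL0A00176g was thus, like that of the members, smaller in sef1Δ than in WT, a difference that was not tested. Beside the chromosome C members, SAKL0C00154g, a hexose transporter gene named HXT8, fell 2.96-fold in YPGly in sef1Δ (-1.57 ± 0.24, adjusted p = 0.000522), and SAKL0C02090g rose 1.97-fold (0.98 ± 0.22, adjusted p = 0.00497). Genes that flank the members thus moved in both directions on glycerol.

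**Figure D3:**
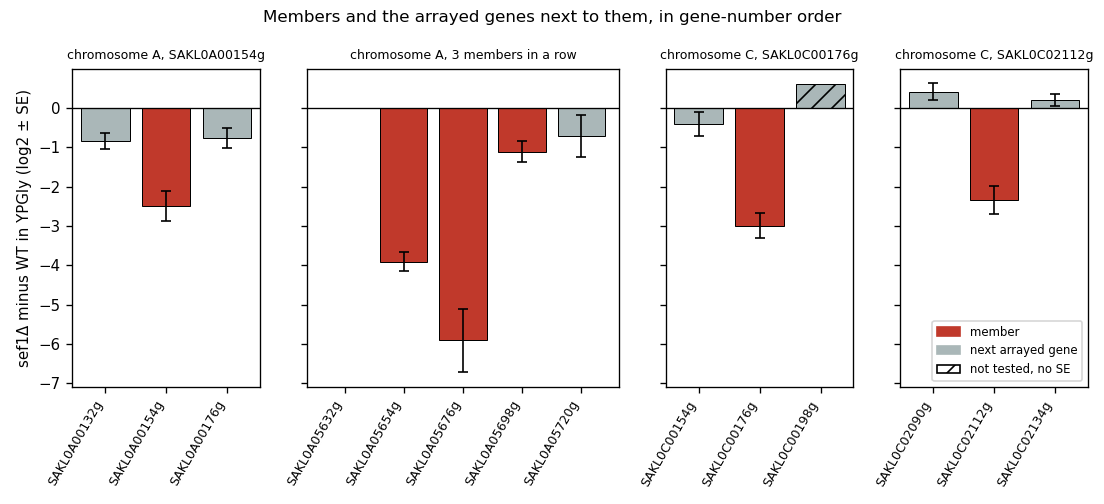
Difference sef1Δ minus WT in YPGly (vertical axis, log2, limma estimate ± SE, 4 arrays each) for the 6 members (red) and the arrayed genes next to them (grey), in order of gene number. Hatched bars were not tested; the untested SAKL0A05632g is at -0.0042 and shows no visible bar. Members lie between -5.91 and -1.11 and tested neighbours between -0.83 and 0.42.

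A list of 23 genes for other steps of sugar use was taken from the study's annotation, and some of those genes were annotated there because they had changed on arrays of the study. It held 19 genes that could be tested. Without a block none passed for sef1Δ against WT in YPGly or in YPD, and the median differences were 0.03 and 0.13, against 0.03 and 0.01 over all genes. The lowest difference in YPGly was that of SAKL0B00264g, an ortholog of the glucose sensor gene RGT2. It read -2.83, -5.31, -3.72 and -2.15 in sef1Δ against 0.52, -2.41, 1.27 and 0.50 in WT, a difference of -3.47 ± 0.84 (SE, limma adjusted p = 0.0922). The groups overlapped by WT replicate 2, and with the replicate number as a block the gene passed with an adjusted p of 0.00103. Like MAL11, it met the signal minimum through its WT arrays in YPGly alone, which are the high side of this comparison. It was also named as the extreme of the list, so these p-values are to be read with that limit. At the other end SAKL0A09856g, an ortholog of RGT1, which represses hexose transporter genes, differed by 0.74 ± 0.21 (adjusted p = 0.138, and 0.0315 with the block).

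On glycerol the list moved both ways in sef1Δ. Of its 19 genes 6 rose and 4 fell, where 18.1% of all genes rose and 22.4% fell. The largest rises were in the RGT2 orthologs SAKL0D10450g (5.23 ± 0.94, limma adjusted p = 0.00153) and SAKL0B00264g (4.29 ± 0.66, adjusted p = 0.000585) and in SAKL0D14960g, an ortholog of the hexose transporter gene HXT1 (3.44 ± 0.36, adjusted p = 5.98e-05). The SAKL0B00264g probe was well above background on only 1 of 4 sef1Δ arrays in YPD, so the size of its change rests on signals near the limit of the measurement. The largest fall was in SAKL0D11946g, an ortholog of the invertase gene SUC2 (-1.97 ± 0.37, adjusted p = 0.00196). These genes are the extremes of a list that partly held genes annotated for changing on arrays of the study. Their p-values, and the counts of the list, are to be read with that limit. In WT 8 of the list rose and 6 fell, where 17.5% of all genes rose and 24.3% fell. There SAKL0B00264g was at least 55.4-fold higher in YPGly, a bound because none of the WT arrays in YPD had its probe well above background. For each YPD array it takes the lowest signal well above background among all gene probes, or the probe's own signal where that was higher. The YPGly mean is set against these. It is a bound only as far as that lowest signal marks the limit of the measurement for this probe.

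**Figure D4:**
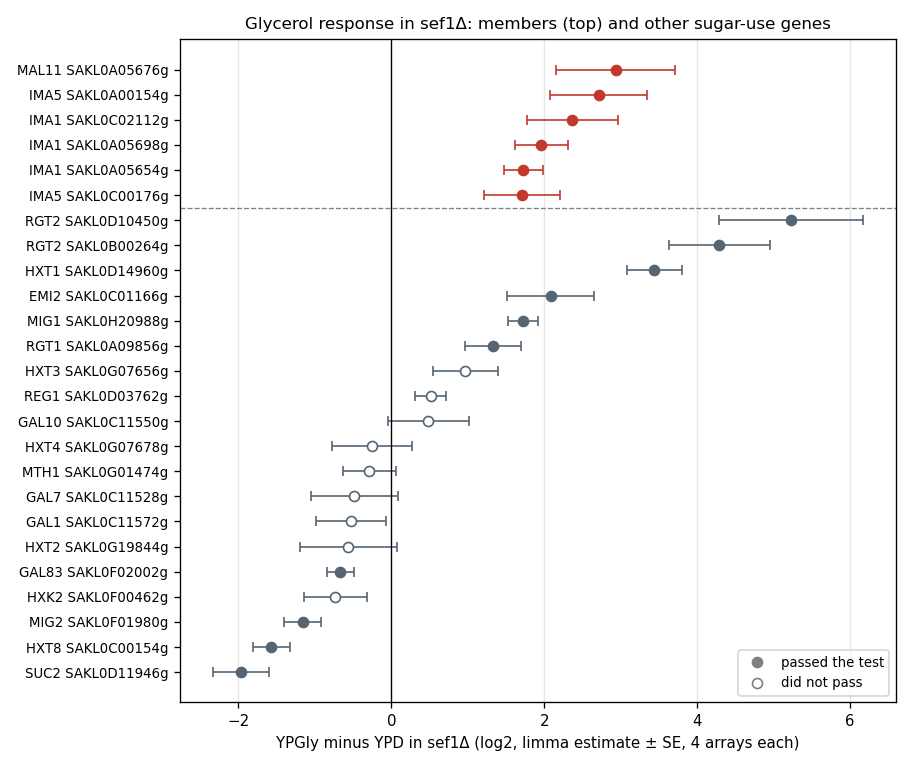
Change in YPGly minus YPD in sef1Δ (horizontal axis, log2, limma estimate ± SE, 4 arrays each) for the 6 members (above the dashed line) and the 19 tested genes of the sugar-use list. Filled circles met the thresholds of the test, which for members is a description only; all 6 members lie between 1.71 and 2.94, and the list runs from -1.97 for SUC2 to 5.23 for an RGT2 ortholog.

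The array on which the isomaltase genes stood apart in YPD also stood apart for part of this list. On sef1Δ replicate 4 in YPD the RGT2 ortholog SAKL0D10450g read 1.61, against -3.25, -1.98 and -3.51 on replicates 1 to 3. The galactose genes SAKL0C11572g, an ortholog of GAL1, and SAKL0C11528g, an ortholog of GAL7, read 0.86 and -0.37 there, against at most -0.31 and -1.73 on the other sef1Δ arrays. The list gene SAKL0C11550g, which lies between them in gene number, stood less apart. It read 0.55 there, against at most 0.04 on replicates 1 to 3. Of the 19 list genes 13 were highest on sef1Δ replicate 4 in YPD. There 4 were over 1 log2 unit above the next array, against 4 of 6 members and 1.43% of all genes tested. Other arrays also stood out for the list. In YPGly, sef1Δ replicate 2 was highest for 10 of the 19 and over 1 log2 unit above for 5, against 4.18% of all genes tested. WT replicate 3 in YPGly was lowest for 14. The share of all genes that was highest or lowest on these arrays was not computed. Nothing is therefore read from the counts of list genes highest or lowest. The part that carbon source left in the medium, growth stage or RNA handling may have had was not tested.

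All members were chosen for lower levels in sef1Δ than in WT in YPGly, so the choice itself raises the likeness of their levels to those of MAL11, which is given as a description over the 16 arrays. Pearson's r was 0.984 for SAKL0A05654g, 0.968 for SAKL0C00176g, 0.944 for SAKL0A00154g, 0.94 for SAKL0C02112g and 0.895 for SAKL0A05698g. Outside the family the highest were SAKL0F16324g, annotated as a conserved hypothetical protein (0.967), SAKL0H15422g, an ortholog of KGD2 for a subunit of a TCA cycle enzyme (0.949), the RGT2 ortholog SAKL0B00264g (0.946), SAKL0F00682g, an ortholog of BRR6 (0.922), and SAKL0B06094g, an ortholog of FAA1, which activates fatty acids (0.912). The 4 groups carry most of these values. For deviations from the group means r was 0.792 for SAKL0A05654g, 0.205 for SAKL0A05698g, 0.655 for SAKL0B00264g and 0.157 for SAKL0F00682g. SAKL0F16324g averaged -0.69 in sef1Δ and 1.67 in WT in YPGly, and -2.50 in sef1Δ and -2.72 in WT in YPD, which is the order of groups that MAL11 had.

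Members differed in how much replicates scattered. The SD of MAL11 was 1.88 over the sef1Δ arrays in YPGly, where the median gene had 0.30 and 0.0705% of the genes tested had a larger SD. In WT in YPGly it was 0.77, with 4.21% of genes above it. In sef1Δ in YPD the SDs of SAKL0A00154g (1.43), SAKL0C02112g (1.37) and SAKL0C00176g (1.08) were exceeded by 0.4%, 0.47% and 1.01% of genes. In WT in YPD the members had SDs of 0.12 to 0.42, around the median gene's 0.23.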

How the data were processed

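The authors extracted total RNA, labelled cDNA with a single dye, hybridized a custom Agilent array and read it with Feature Extraction 10.5.1.1, per the labels and file headers. The deposited scanner tables give a linear processed intensity per spot, background-subtracted but not scaled between arrays, and its median and local background intensity, used only for an alternative. Flags of the scanner software were used as deposited. The authors' value table, in log2, was used as an alternative and lay a fixed amount per array from the values computed here (SD at most 3.72e-07). Each array's signal was divided by its 75th percentile over the gene probes, after 32 non-uniform outlier spots, none on a member probe, were left out. Signals carry no read depth, and the number of arrays, 4 per group, limits precision.

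The arrays of the 2 groups compared were fitted with limma 3.58.1 in R 4.3.3, without covariates, and p-values were adjusted over all 4255 genes. The fit was tested on simulated data. At a change of 1 log2 unit it called 68% of changed genes for the strains in YPD and 58% for the media in sef1Δ. At a change of 2 log2 units it called 94% of changed genes for the strains in YPD and 100% for the media in sef1Δ. Each run held 4255 genes, with 50 changed by that amount and others changed by 1, 3 or 4 log2 units. Unchanged genes were called 9 times in YPD and 8 times for the media in sef1Δ. The noise was drawn independently per array, without pairs or slides. Many changed genes make the adjusted threshold easier to pass than in the real YPD comparison, where 3 genes were called. The 68% and 94% therefore do not give the power for the members. Ratios against a group with no array well above background are lower bounds. Alternatives covered the probe, normalization, background, filter, test, blocks, slides and single arrays. The study's own test was an unpaired t-test without correction.

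Same-numbered arrays were checked for pairing by the correlation of their deviations from the group means. It was 0.366 to 0.712 between strains in YPD and 0.208 to 0.701 in YPGly. There the numbers may mark pairs, judged from the data and not from the labels. The main strain fits nevertheless carried no block, so every strain p-value given without the block leaves this pairing out. Fits with the replicate number as a block are given as an alternative. Between media the correlation was 0.0868 to 0.401 in sef1Δ and 0.000475 to 0.37 in WT, and the numbers were not taken as pairs.

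The members, the sugar-use list and the tests were chosen with earlier results of these data known. Comparisons that share YPGly arrays with the choice of the members are described for them without a test, which for the media in sef1Δ departs from the plan. Genes were named by a rule. It took the members, the arrayed genes next to them, genes of the sugar-use list called between strains or with the largest change each way, the 5 genes most like MAL11, and SEF1. GAL1 and GAL7 orthologs were named after their values were seen, as were neighbours and list genes given beyond this. Probe sequences and genome coordinates were not used here.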

Additional observations from a re-analysis of the deposited data

Results flagged for a closer look

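Of 48 sets of 4 arrays, which are the 12 member probes in each of the 4 groups, 8 held an array whose gap to the nearest other, as a share of the range, was above Dixon's critical value for 4 samples. The shares were 0.832 to 0.963. By chance about 1 in 20 sets would be marked so, and the probes share genes and sequence. In 5 of the 8 the array was sef1Δ replicate 4 in YPD, each time the highest. It read -1.28 and -2.76 on the probes of SAKL0A05654g, -2.48 on the second probe of SAKL0A05698g, and -0.67 and -4.12 on the probes of SAKL0C02112g. In the other 3 it was sef1Δ replicate 3 in YPGly, the lowest each time. It read -0.33 on the first probe of SAKL0A00154g and -2.28 and -1.79 on the probes of SAKL0C00176g.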

How the results depend on the processing

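Counts of genes called moved most where few were called. For sef1Δ against WT in YPD, with 3 genes called, the other probe, the probe mean, spike-in scaling, normexp, the slide block, either slide alone and the methods' t-test after Benjamini-Hochberg gave 1 each, and the methods' t-test without correction 17; leaving out 1 array gave 1 to 2. For sef1Δ against WT in YPGly, with 52 called, a fit on all 16 arrays gave 117, the replicate block 223, each slide alone 2, and the methods' t-test 241 without and 31 with adjustment. Leaving out 1 array there gave 25 to 132 genes, with 132 without sef1Δ replicate 2 and 97 without WT replicate 4, and 4 to 6 members, with 4 without WT replicate 1, where SAKL0A00154g was lost. Without the Xhyb probes 48 of 4224 genes were called, 18 of them lower, with 2 of the 3 members tested. Of the 6 members 1 was called on slide 1, 0 on slide 2 and 2 by the adjusted t-test. Since this comparison chose the members, nothing is read from these counts. For glycerol in sef1Δ, with 1723 genes called, the slides alone gave 818 and 1099, and leaving out 1 array 1438 to 1823. Without the Xhyb probes 1703 of 4224 genes were called there, 765 of them higher, with 3 of the 3 members tested. Of the members, whose choice shares these YPGly arrays, 6 were called in the main fit, 0 on slide 2 and 5 to 6 with 1 array left out. For glycerol in WT, with 1782 called, the slides gave 998 and 889, and single arrays left out 1596 to 1820. Without the Xhyb probes 1761 of 4224 genes were called in WT, 740 of them higher, with 3 of the 3 members tested. The WT arrays in YPGly were the high side of the choice. Nothing is read from the member counts for glycerol in either strain.

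The differences between strains in YPD, all within their error, changed sign in places. SAKL0C02112g gave -0.073 with the other probe, -0.0262 with the probe mean, -0.0222 with quantile scaling and -0.62 on slide 1. SAKL0C00176g gave 0.13 with the other probe, 0.0542 with the mean, 0.35 with spike-in scaling and 0.47 on slide 2. MAL11 gave -0.27 with normexp and -0.20 on slide 1, and on slide 1 SAKL0A05698g gave -0.14, SAKL0A00154g -0.33 and SAKL0D10450g -0.41. Leaving out 1 array gave -0.18 to 0.31 for MAL11, -0.0151 to 0.24 for SAKL0A05654g, -0.14 to 0.36 for SAKL0A05698g, -0.66 to 0.33 for SAKL0C02112g, -0.47 to 0.61 for SAKL0A00154g and -0.54 to 0.27 for SAKL0C00176g. Spike-in scaling moved the median change of all genes to 0.53 for glycerol in WT and 0.18 in sef1Δ, and the share of calls that were lower to 10.7% in place of 58.1% and 32.4% in place of 55.3%. Under it the WT glycerol changes of SAKL0C02134g and SAKL0A00132g were 0.0274 and 0.0181, and those of the members stayed higher. The replicate block, for glycerol a shared number only, gave 1855 genes in sef1Δ and 1857 in WT with all 6 members, and 3 genes and no member for the strains in YPD. The causes of these shifts were not tested. MAL11 in YPD is limited by its signal over background.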
